A study of Mus musculus with 12 samples.

Results

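The genes measured here encode the subunits of the NMDA receptor, a glutamate-gated channel. They are Grin1, Grin2a, Grin2b, Grin2c, Grin2d and Grin3a, chosen by symbol from the gene count table, and they make up 6 of its 22236 genes. All 6 passed the filter on low counts that left 15854 genes for testing. The seventh subunit gene, Grin3b, is not one of the 6; it had 5.14 to 31 expected counts per library and was also tested.

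NMDA receptors open when glutamate and a co-agonist, glycine or D-serine, are bound while the membrane is depolarized, and they then let calcium into the postsynaptic cell. Every receptor holds the obligatory GluN1 subunit, encoded by Grin1, together with GluN2 subunits (Grin2a to Grin2d) or GluN3 subunits (Grin3a and Grin3b), which set its kinetics, its block by magnesium and its calcium entry. In the hippocampus the receptor is best known for triggering long-term potentiation and depression, and GluN2A and GluN2B are the main GluN2 subunits of its excitatory neurons.

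Messenger RNA was sequenced from the dissected hippocampus of male mice aged 3 to 5 months, each of the strain C57BL/6J (B6) or DBA/2J (D2), at least 6 weeks after viral injection. The virus was AAV9-shRNA-Hp1bp3, with a short hairpin RNA against the chromatin protein Hp1bp3 (KD), or AAV-scrmb-shRNA, with a scrambled hairpin (Ctrl), so that the controls had also received virus and a hairpin. There were 3 libraries in each of the 4 groups B6 Ctrl, B6 KD, D2 Ctrl and D2 KD, with 18.2 to 39.4 M expected reads per library. The comparisons ask whether the knockdown changed hippocampal gene expression, whether it did so alike in both strains, and how the strains differed.

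Levels are read counts scaled to a common library size, CPM, after normalization by the trimmed mean of M-values (TMM). The targeted gene Hp1bp3 stood at 308, 294 and 310 CPM in B6 Ctrl and at 185, 182 and 259 CPM in B6 KD. It stood at 226, 215 and 234 CPM in D2 Ctrl and at 177, 163 and 230 CPM in D2 KD, so the library labelled D2 KD 3 lay inside the range of its controls and went against its label. The log2 fold change of Hp1bp3 in edgeR's quasi-likelihood test was -0.54 ± 0.15 (SE, adjusted p = 0.0760) in B6 and -0.25 ± 0.15 (adjusted p = 1) in D2. It was called in B6 by DESeq2 (-0.57, adjusted p = 0.00893) and by edgeR without B6 KD 3 (-0.76, adjusted p = 0.0226) or without D2 KD 3 (-0.54, adjusted p = 0.0468). Averaged over strains it was called by DESeq2 (-0.41, adjusted p = 0.0106) and not by edgeR (-0.39 ± 0.11, adjusted p = 0.0909), which called it without D2 KD 3 (adjusted p = 0.0283) or without B6 KD 3 (adjusted p = 0.0310). Hippocampal glutamatergic neuron markers were present in every library, with summed levels of 4690 to 7329 CPM for 6 genes. The summed level of 6 choroid plexus markers ran from 58.6 to 5095 CPM and differed widely between libraries of every group, and their part in the results below was not tested. A difference in bulk tissue cannot be told apart from fewer cells that express the gene or less RNA per cell.

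Each member lies on the minus strand of a different chromosome in GENCODE release M21 (GRCm38). Grin1 is at chr2:25291181-25319187, Grin2a at chr16:9567898-9995560, Grin2b at chr6:135713233-136173511, Grin2c at chr11:115249169-115267243, Grin2d at chr7:45831883-45878378 and Grin3a at chr4:49661611-49845744. The gene models differ most in their 3′ untranslated regions (UTRs). The longest annotated one is 18868 bases in Grin2b and 9932 in Grin2a, and 3618 in Grin3a, 1190 in Grin1, 900 in Grin2d and 405 in Grin2c. Grin2a and Grin2b also have annotated transcripts with far shorter ones, of 89 and 2275 bases. The spans of Grin1, Grin2d and Grin3a overlap those of Grin1os (opposite strand), Kdelr1 (opposite strand) and Ppp3r2 (same strand), and whether the counting used strand was not given in the sources used here.

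RefSeq promoter sequence (GRCm38.p6) was at hand for 3 of the 6 members, Grin1, Grin2c and Grin2d, and not for Grin2a, Grin2b and Grin3a. The 250 bases upstream of the start of Grin1 and Grin2c are shown because these genes are a pair with unlike results. Grin1, the obligatory subunit, had like levels in both strains, and Grin2c was called in the strain comparison, a call lost in 8 of 12 fits without a library. The bases are written 5′ to 3′ on the gene's strand, with GC boxes (GGGCGG or CCGCCC) in capitals, at chr2:25319188-25319437 and chr11:115267244-115267493.
Grin1: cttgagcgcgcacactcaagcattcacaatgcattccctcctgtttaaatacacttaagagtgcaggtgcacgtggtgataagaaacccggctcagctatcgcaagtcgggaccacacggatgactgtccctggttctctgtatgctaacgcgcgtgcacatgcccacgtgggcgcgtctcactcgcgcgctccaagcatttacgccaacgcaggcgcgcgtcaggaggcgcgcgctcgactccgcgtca
Grin2c: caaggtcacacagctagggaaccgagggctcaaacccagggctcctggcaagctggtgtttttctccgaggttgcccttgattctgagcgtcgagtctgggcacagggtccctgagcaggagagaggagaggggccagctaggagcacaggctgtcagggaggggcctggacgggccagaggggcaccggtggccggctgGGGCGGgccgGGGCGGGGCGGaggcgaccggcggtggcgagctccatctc
The Grin2c window held 3 GC boxes, the last pair overlapping, and was 68.8% G or C with 15 CpG dinucleotides. The Grin1 window held none, was 58.8% G or C and had 27 CpG dinucleotides. A GC box stood in 32.7% of all 32851 promoter windows of that length, whose median was 52.4% G or C and 6 CpG dinucleotides. The Grin2d window held no GC box and was 54.4% G or C.

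Grin1 was the highest of the 6 per kilobase of merged exons. In B6 the order was Grin1 (40.13 to 58.5 CPM per kb over 6 libraries), Grin2b (17.5 to 35.8), Grin2c (8.10 to 12.7), Grin3a (2.99 to 5.14), Grin2d (1.89 to 2.86) and Grin2a (0.545 to 1.66), and no neighbours in that order overlapped. In D2 the order was Grin1 (41.4 to 58.4 CPM per kb), Grin2c (10.1 to 14.8), Grin3a (3.19 to 6.11), Grin2d (1.69 to 2.24), Grin2b (1.32 to 2.54) and Grin2a (0.312 to 1.16). Grin2d and Grin2b overlapped there, and each was higher than the other in 3 of 6 libraries. Grin2b thus held place 2 of 6 in B6 and place 5 in D2. Per kilobase of coding sequence it held place 2 in B6 and place 4 in D2, but it overlapped its upper neighbour in each strain, Grin1 in B6 and Grin3a in D2, and was lower in 5 of 6 libraries each. Grin2c and Grin3a also overlapped in both strains, as did Grin2d and Grin2a. The length that fits the libraries is unknown, so an order between genes of unlike UTR length holds only for the length named.

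**Figure D1:**
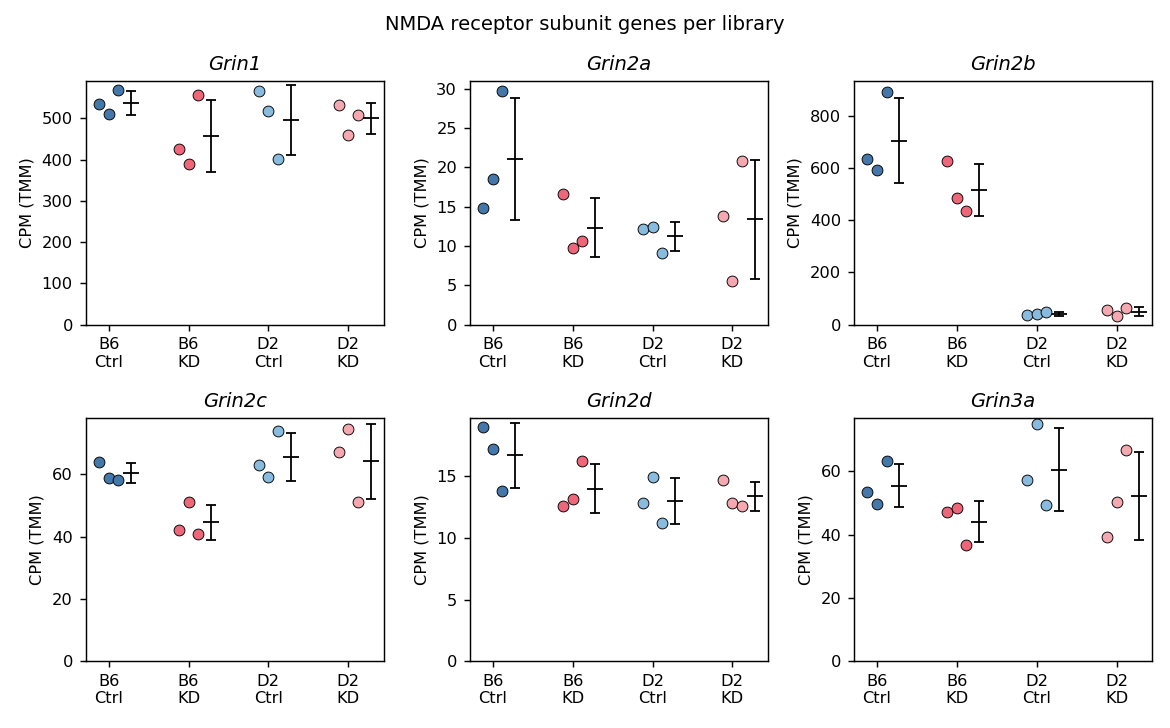
Level of each NMDA receptor subunit gene (CPM, linear axes from 0, one scale per panel) in the 3 libraries of each group, with the group mean and SD to the right of the points. Grin2b lies at 435 to 889 CPM in B6 and at 32.9 to 63.0 CPM in D2, while the other genes overlap between the strains.

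Of the 6 genes, Grin2b differed most between the strains. Grin2b encodes GluN2B, which gives receptors slow deactivation. It stood at 633, 590 and 889 CPM in B6 Ctrl and at 625, 486 and 435 CPM in B6 KD. In D2 Ctrl it stood at 35.7, 40.4 and 50.04 CPM, and in D2 KD at 55.2, 32.9 and 63.0 CPM. The lowest B6 library was far above the highest D2 library in both treatments, and 9.01% of all tested genes were separated by strain in that direction. The raw expected counts were 11076 to 30750 in B6 and 713 to 1993 in D2, so the low D2 level still rests on many reads. D2 was 13.1-fold lower than B6, a log2 fold change of -3.71 ± 0.19 (SE, edgeR quasi-likelihood test, adjusted p = 1.08e-07). Leaving out each library in turn gave -3.81 to -3.59. As large a strain difference, in either direction, was found for 1.48% of the tested genes, and 0.858% were called and over 10-fold lower in D2.

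The strain comparison called 2 of the 6 members, Grin2b and Grin2c, where 21.3% of all tested genes were called. DESeq2 and limma-voom called the same 2 members, beside 21.8% and 21.1% of genes. Grin2c encodes GluN2C, a subunit known from cerebellar granule cells and from astrocytes. In B6 it stood at 64.1, 59.0 and 58.3 CPM with Ctrl virus and at 42.2, 51.1 and 40.8 CPM with KD virus. In D2 it stood at 63.1, 59.2 and 74.0 CPM with Ctrl virus and at 67.3, 74.5 and 51.0 CPM with KD virus. The Ctrl libraries of the strains overlapped, and it was the B6 KD libraries that lay low. Averaged over treatments Grin2c was higher in D2 (log2 fold change 0.32 ± 0.10, edgeR adjusted p = 0.0447). The call was lost in 8 of 12 fits without a library (adjusted p from 0.00735 to 0.0988), including those without B6 Ctrl 2, B6 Ctrl 3, B6 KD 1, B6 KD 3, D2 Ctrl 1, D2 Ctrl 3, D2 KD 1 and D2 KD 2. Without the library labelled D2 KD 3 it was 0.39 (adjusted p = 0.00735).

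The remaining members did not pass the test between the strains. Grin1 lay at 389 to 567 CPM in B6 and at 402 to 566 CPM in D2, with a log2 difference of 0.0053 ± 0.11 (edgeR adjusted p = 0.983) and a 95% interval of -0.23 to 0.24. Grin2a, the gene of GluN2A, which gives receptors fast deactivation, had a log2 difference of -0.40 ± 0.29 (adjusted p = 0.424). For Grin2d, whose GluN2D subunit is known from interneurons, the value was -0.21 ± 0.11 (adjusted p = 0.226). Grin3a encodes GluN3A, which lowers calcium entry, and its value was 0.18 ± 0.15 (adjusted p = 0.464). Strain differences of these 4 genes lay within 0.40 log2 units of 0, and the 95% intervals of Grin2a (-1.05 to 0.25) and Grin3a (-0.14 to 0.50) reach further than the estimates.

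**Figure D2:**
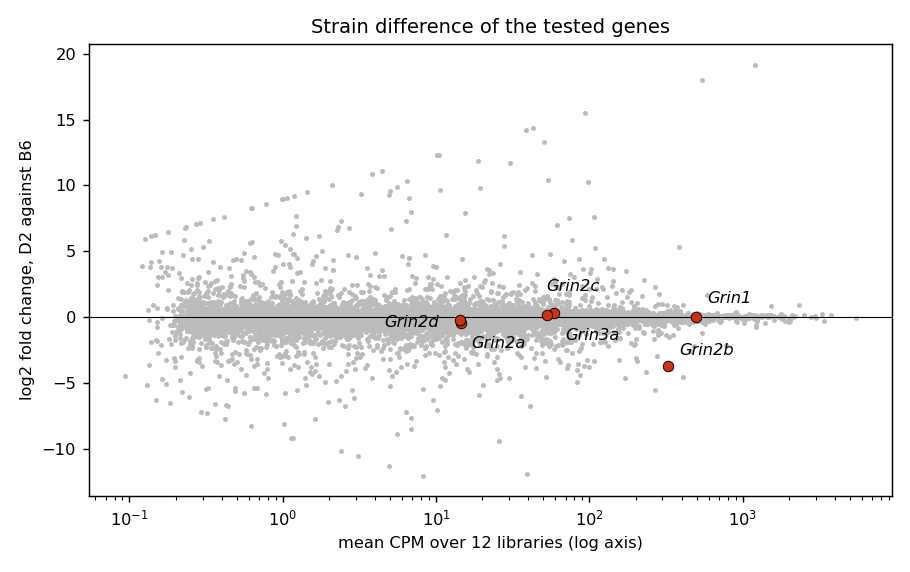
Each grey point is a tested gene, by its mean level over 12 libraries (CPM, log axis) and its log2 fold change of D2 against B6 averaged over treatments, and red points are the 6 NMDA receptor subunit genes. Grin2b, at -3.71, stands below the cloud of genes of like level, and the other members lie near 0; points at the far ends are genes with almost no reads in a strain.

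The reads of each strain had been aligned to a genome of that strain, so strain and reference cannot be told apart in these differences. The expected counts were not whole numbers for 24.5% to 27% of the detected genes in B6 libraries and for 13% to 14.9% in D2 libraries (a count is not whole where the estimation divided reads between genes). Grin2a, Grin2b, Grin2d and Grin3a had whole counts in all 12 libraries, while Grin1 did not in 6 of 6 B6 and 5 of 6 D2 libraries, and Grin2c did not in 3 B6 libraries. Strain differences of over 4-fold lower were found for 12 of the 127 tested genes with an annotated 3′ UTR of 8000 bases or more (9.45%), Grin2b among them. They were found for 34 of 578 genes (5.88%) with 5000 to 8000 bases, for 2.03% with 2000 to 5000 and for 1.37% with under 2000. Over 4-fold higher were 6 of 127 genes (4.72%) of the longest class and 1.04%, 0.728% and 1.44% of the others. The medians of the 4 classes lay between 0.0097 and 0.032 on the log2 scale. The part of 3′ UTR annotation in the Grin2b difference was not tested. Of the 10 nearest tested genes on chromosome 6, Ddx47 was lower in D2 (-0.30 ± 0.05, edgeR adjusted p = 0.00120) and Hist4h4 higher (1.27 ± 0.21, adjusted p = 0.000887), and 8 were not called, Emp1 and Atf7ip on either side among them. The share of all tested genes called between the strains was 21.3%, near that of these neighbours.

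The ratio of Grin2a to Grin2b, which needs no normalization between libraries, followed the strain. For 1 Grin2a read there were 42.5, 31.9 and 29.9 Grin2b reads in the B6 Ctrl libraries and 37.7, 49.7 and 40.8 in the B6 KD libraries. In D2 there were 2.92, 3.26 and 5.51 Grin2b reads under Ctrl and 4.01, 5.87 and 3.03 under KD. No B6 library came near a D2 library. The strain difference of the ratio rests on the Grin2b counts given above and is no separate result. Strain and reference cannot be told apart in it. The group means of the log2 ratio of Grin2a to Grin2b in B6 were -5.10 ± 0.27 (SD, n = 3) for Ctrl and -5.41 ± 0.21 for KD. In D2 they were -1.90 ± 0.49 for Ctrl and -2.05 ± 0.48 for KD. It was higher in D2 by 3.28, or 9.69-fold (exact 2-sided permutation test, p = 0.005, the smallest the 400 assignments allow, adjusted p = 0.015 over 3 tests). The difference of KD from Ctrl was -0.23 (exact p = 0.305, adjusted p = 0.458), and the KD effects of the strains differed by 0.16 (exact p = 0.71, adjusted p = 0.71).

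Among the 4 Grin2 genes, counted per kilobase of merged exons, Grin2b made up 63.9% ± 5.3 (SD, n = 3) of B6 Ctrl and 63.7% ± 4.8 of B6 KD, but 9.76% ± 1.0 of D2 Ctrl and 11.8% ± 4.5 of D2 KD. Grin2c held the largest share in D2, with 75.1% ± 2.9 in Ctrl and 72.3% ± 8.1 in KD, against 27.7% ± 4.3 and 27.6% ± 4.3 in B6. Shares sum to the whole, and the level of Grin2c itself was 1.25-fold higher in D2. Strain and reference cannot be told apart in the Grin2b counts that enter these shares. Grin2d made up 5.83% ± 1.5 and 6.61% ± 1.7 in B6 and 11.4% ± 2.4 and 11.5% ± 0.85 in D2. Grin2a held from 2.10% to 4.41% in the group means. Per kilobase of coding sequence Grin2b made up 85.9% in B6 Ctrl and 28.6% in D2 Ctrl, and Grin2c 9.11% and 53.5%. By group mean Grin2b was the largest of the 4 Grin2 genes in B6 and Grin2c in D2 with both lengths, but in the library labelled D2 KD 3 Grin2b was above Grin2c per kilobase of coding sequence (14.2 against 13.7 CPM per kb).

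**Figure D3:**
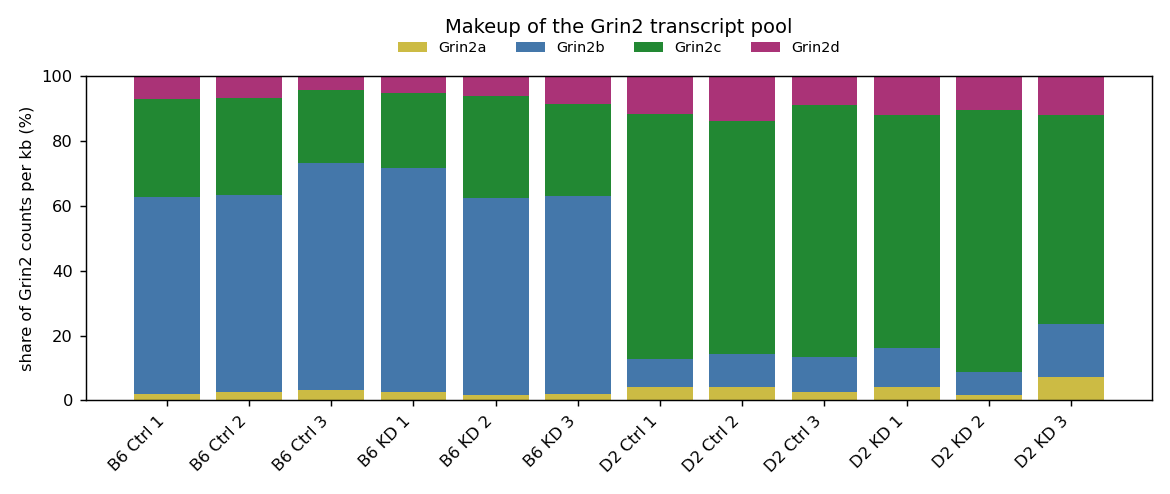
Share of Grin2a, Grin2b, Grin2c and Grin2d in their summed counts per kilobase of merged exons (percent, stacked to the whole), 1 bar per library. Grin2b holds the largest share in the 6 B6 libraries and Grin2c in the 6 D2 libraries, with no visible step between Ctrl and KD.

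In B6 the knockdown called none of the 6 members (edgeR adjusted p under 0.05), where 2.64% of all tested genes were called. An unadjusted p under 0.05 was found for 1 member, against 20.6% of all genes, and DESeq2 called 1 (10.1% of genes) and limma-voom 0 (2.32%). Every one of the 6 estimates lay below 0, with a median of -0.38, where 49.4% of all genes lay below 0 around a median of 0.0025. In 2 members, Grin2c and Grin3a, all KD libraries were lower than all Ctrl libraries, and 14.0% of all genes were separated in that direction. The members share libraries, so their common sign is not 6 separate observations.

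The member with an unadjusted p under 0.05 was Grin2c. Its B6 KD libraries (40.8 to 51.1 CPM) lay below its B6 Ctrl libraries (58.3 to 64.1 CPM). The log2 fold change was -0.44 ± 0.14 (edgeR, adjusted p = 0.117, unadjusted 0.0112). DESeq2 gave -0.46 (adjusted p = 0.0374) and limma-voom -0.45 (adjusted p = 0.110). Without B6 KD 3, in which Hp1bp3 was least reduced, the edgeR value was -0.41 (adjusted p = 0.155). The summed level of 7 astrocyte markers was 2819 to 4032 CPM in B6 KD and 1909 to 2015 CPM in B6 Ctrl, with 1 of 7 called higher (Aqp4) and a median log2 fold change of only 0.11, and that of 9 interferon response genes was 410 to 1250 against 68.1 to 83.2 CPM, with 9 of 9 called higher. The part of either in the Grin2c value was not tested.

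Grin3a stood at 53.6, 49.7 and 63.1 CPM in B6 Ctrl and at 47.1, 48.5 and 36.8 CPM in B6 KD. The groups did not overlap but came close, and the log2 fold change was -0.33 ± 0.21 (edgeR adjusted p = 0.394). Grin2a stood at 14.9, 18.5 and 29.8 CPM in B6 Ctrl and at 16.6, 9.78 and 10.7 CPM in B6 KD, with a log2 fold change of -0.77 ± 0.41 (adjusted p = 0.324). B6 Ctrl 3 was its highest library of all 12, and without it the value was -0.46; without B6 KD 1 it was -1.07. For Grin2b the log2 fold change in B6 was -0.45 ± 0.25 (adjusted p = 0.329), with B6 KD 1 inside the Ctrl range.

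Grin1 stood at 536, 509 and 567 CPM in B6 Ctrl and at 426, 389 and 556 CPM in B6 KD. Only B6 KD 3 lay among the controls, and it was also the B6 KD library with the most Hp1bp3. The log2 fold change of Grin1 was -0.23 ± 0.15 (edgeR adjusted p = 0.411), and -0.43 without B6 KD 3 (adjusted p = 0.113). Grin2d shared this pattern, with only B6 KD 3 among its controls. Grin2b, Grin2c and Grin3a did not, as B6 KD 3 held their lowest B6 level. Without that library the fall was also larger for Grin2d (-0.41). It was smaller for Grin2a (-0.70), Grin2b (-0.37), Grin2c (-0.41) and Grin3a (-0.25). Grin2d stood at 19.0, 17.2 and 13.8 CPM in B6 Ctrl and at 12.6, 13.1 and 16.3 CPM in B6 KD, with a log2 fold change of -0.25 ± 0.15 (adjusted p = 0.383). The summed level of 4 CA1 pyramidal markers was 406 to 499 CPM in B6 KD and 555 to 736 CPM in B6 Ctrl, with 0 of 4 called by edgeR. Summed CA3 pyramidal markers (203 to 299 against 231 to 302 CPM) and interneuron markers (653 to 1022 against 789 to 885 CPM) overlapped between these groups. So did glutamatergic neuron markers (4690 to 6273 against 6098 to 7021 CPM) and dentate granule markers (145 to 220 against 192 to 304 CPM). The part of any of these lists in the values above was not tested.

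In D2 the knockdown called none of the 6 members, and 0% of all tested genes. No member had an unadjusted p under 0.05 (2.85% of all genes did), and DESeq2 (0.00525% of genes) and limma-voom (0%) called 0 members too. Grin1 stood at 566, 518 and 402 CPM in D2 Ctrl and at 533, 460 and 507 CPM in D2 KD. Its log2 fold change was 0.014 ± 0.15 (edgeR adjusted p = 1), with a 95% interval of -0.32 to 0.34. Grin2c had -0.027 ± 0.14, Grin2d 0.040 ± 0.16, Grin2a 0.25 ± 0.42, Grin2b 0.26 ± 0.25 and Grin3a -0.21 ± 0.21, each with an edgeR adjusted p of 1. Estimates below 0 were found for 2 of the 6 members, and the median was 0.027.

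The library labelled D2 KD 3 moved several of these values. It held the highest D2 level of Grin2a (20.8 CPM, where D2 KD 1 and 2 held 13.8 and 5.602 and D2 Ctrl 12.2, 12.4 and 9.07) and of Grin2b (63.0 CPM), and the lowest of Grin2c (51.0 CPM). Without it the edgeR log2 fold change in D2 was -0.22 for Grin2a, 0.066 for Grin2b, 0.11 for Grin2c, 0.080 for Grin2d, 0.0029 for Grin1 and -0.43 for Grin3a, none of them called. Grin3a stood at 57.2, 74.9 and 49.4 CPM in D2 Ctrl and at 39.2, 50.4 and 66.8 CPM in D2 KD, and the last value was again that library. Grin2d kept a narrow range in D2, with 12.9, 14.9 and 11.2 CPM in Ctrl and 14.7, 12.8 and 12.6 CPM in KD.

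**Figure D4:**
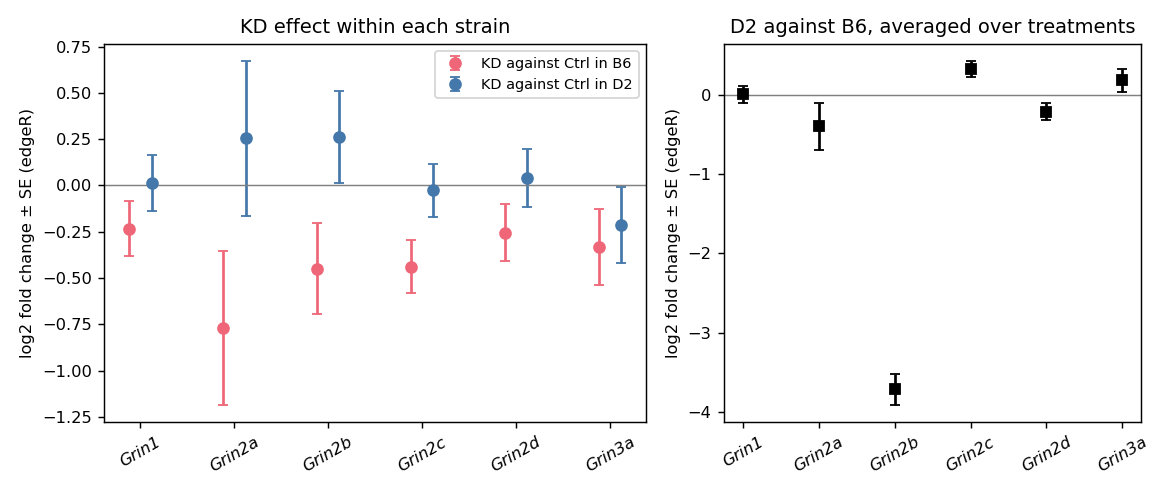
Left, edgeR log2 fold change of KD against Ctrl in B6 (red) and in D2 (blue) for each NMDA receptor subunit gene, with bars of 1 SE; right, that of D2 against B6. The 6 estimates in B6 lie below 0, from -0.77 to -0.23, those in D2 lie on both sides of 0, and on the right only Grin2b stands far from 0.

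The difference between the knockdown effects of the strains was not called for any member, and for 0% of all tested genes (5.91% had an unadjusted p under 0.05, and DESeq2 called 0.0744%). No member had an unadjusted p under 0.05, and DESeq2 and limma-voom called 0 members. All 6 estimates were positive, that is, less negative in D2 than in B6, with a median of 0.35. The largest was that of Grin2a, 1.02 ± 0.59 (edgeR adjusted p = 0.894). Those of Grin2b, 0.71 ± 0.35, and Grin2c, 0.41 ± 0.20, had unadjusted p-values of 0.0680 and 0.0677 and an adjusted p of 0.848 each. So the lower estimates in B6 were not shown to differ from those in D2.

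Averaged over the strains, the knockdown called 0 of the 6 members and 0% of all tested genes, with DESeq2 calling 0 members (7.11% of genes) and limma-voom 0 (0%). One member, Grin2c, had an unadjusted p under 0.05 (0.0429, adjusted p = 0.245, log2 fold change -0.23 ± 0.10), as did 19.2% of all genes. The other values were -0.27 ± 0.15 for Grin3a (edgeR adjusted p = 0.335), -0.26 ± 0.29 for Grin2a (0.667), -0.11 ± 0.11 for Grin1 (0.608), -0.11 ± 0.11 for Grin2d (0.630) and -0.095 ± 0.18 for Grin2b (0.796). Their 95% intervals reach down to -0.34 for Grin1 and -0.91 for Grin2a, so falls of that size lie within the error of these libraries. Grina, whose product shares a name with the receptor but is no subunit, lay at 311 to 383 CPM in all libraries (-0.039 ± 0.064, adjusted p = 0.768).

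Libraries within a group differed in the level of genes with long 3′ UTRs. The measure was the median log2 deviation of 125 genes, members left out, with an annotated 3′ UTR of 8000 bases or more. It was 0.25 in B6 Ctrl 3 and 0.19 in D2 Ctrl 2, and -0.18 in B6 KD 3 and D2 Ctrl 3. The library highest in this measure was also the highest of its group in Grin2a in 4 of 4 groups, in Grin2b and Grin3a in 3 of 4, in Grin1 and Grin2d in 1 and in Grin2c in 0. The lowest library matched in 3 of 4 groups for Grin3a, in 2 for Grin2a and in 1 for each other member. Within groups, Pearson's r with the measure was 0.858 for Grin3a, 0.646 for Grin2a and 0.369 for Grin2b. It was 0.175 for Grin1, -0.334 for Grin2d and -0.524 for Grin2c. The longest annotated 3′ UTR of Grin3a, 3618 bases, is under the limit of 8000, so r did not follow the length across members. With this measure as a covariate, which was added after seeing the data, the edgeR log2 fold change of KD in B6 was -0.55 for Grin2a, -0.39 for Grin2b, -0.22 for Grin3a and -0.48 for Grin2c, none of them called (adjusted p from 0.0650 for Grin2c to 0.372 for Grin2b). The strain difference of Grin2b was then -3.68 (adjusted p = 2.02e-07). What makes libraries differ in this measure was not tested.

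**Figure D5:**
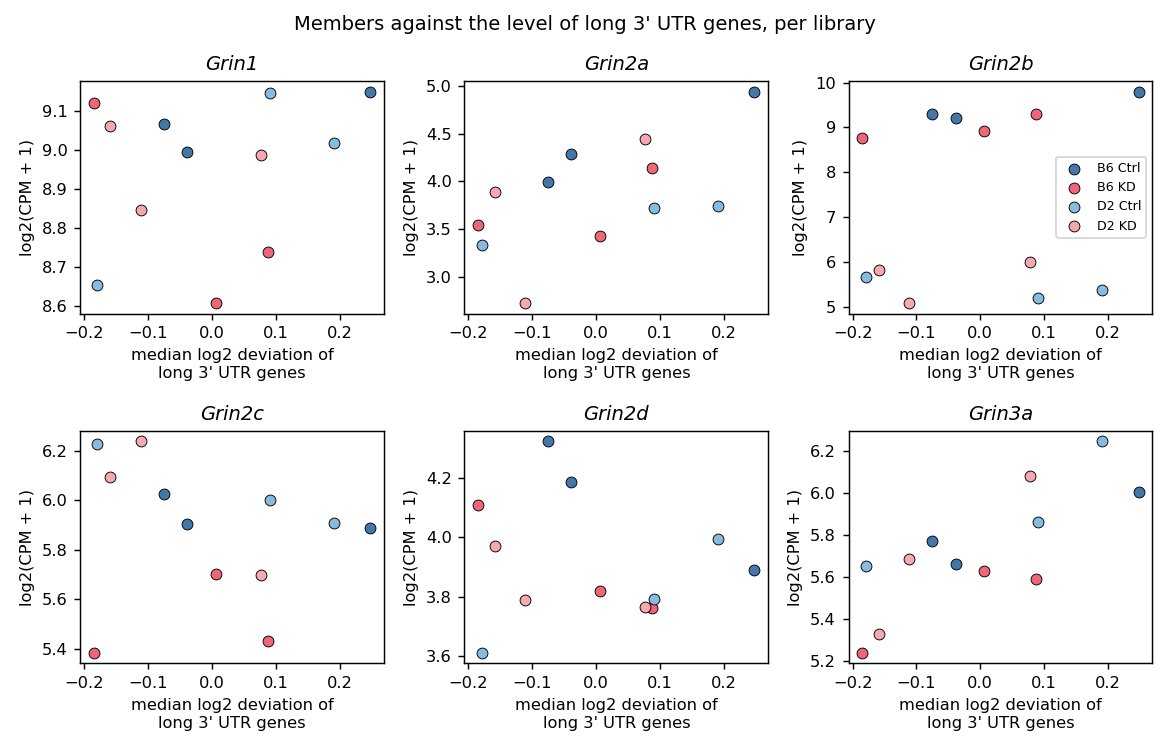
Level of each member (log2(CPM + 1)) against the median log2 deviation of 125 other genes with an annotated 3′ UTR of 8000 bases or more, 1 point per library and colours by group. Within groups the Grin2a and Grin3a points tend to lie higher to the right, and the Grin2b points form an upper B6 and a lower D2 band.

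Genes that work with the receptor were read from lists of 69 genes, of which 67 were tested. In the knockdown comparisons edgeR and limma-voom called 0 of 67 in B6, in D2 and averaged over strains. An unadjusted p under 0.05 in edgeR was found for 17, 3 and 20 of them (25.4%, 4.48% and 29.9%), beside 20.6%, 2.85% and 19.2% of all genes. DESeq2 called 13, 0 and 7 of them (19.4%, 0% and 10.4%), beside 10.1%, 0.00525% and 7.11% of all genes. In B6 53 of 67 estimates lay below 0, with a median of -0.21 beside 0.0025 for all genes. The 16 genes of calcium signalling downstream of the receptor had the lowest median there, -0.30, with 16 of 16 below 0 (49.4% of all genes) and DESeq2 calls for 6 (37.5%, beside 10.1% of all genes). Crtc1, a calcium-regulated coactivator of CREB, had 219 to 268 CPM in B6 KD and 315 to 350 CPM in B6 Ctrl (log2 fold change -0.47 ± 0.12, edgeR adjusted p = 0.0618). Ptk2b, a calcium-activated tyrosine kinase, had 653 to 704 against 936 to 1034 CPM (log2 fold change -0.52, adjusted p = 0.0648). The 23 scaffold and trafficking genes had a median of -0.10 in B6, with Shank1, a postsynaptic scaffold, at -0.38 (adjusted p = 0.0784). The 13 kinases and phosphatases had -0.17 and the 15 genes of co-agonist and glutamate handling -0.16, with the neuronal glutamate transporter gene Slc1a1 at -0.21 (adjusted p = 0.190).

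Averaged over the strains the gene with the smallest p in each list was again Crtc1 (-0.37, edgeR adjusted p = 0.0643) and Ptk2b (-0.39, adjusted p = 0.0742), and for scaffolds Dlg4, which encodes PSD-95 (-0.21, adjusted p = 0.134). For glutamate and co-agonist handling it was Slc1a4, a neutral amino acid transporter gene (0.29, adjusted p = 0.217). Over the 67 tested genes of all lists together the median was -0.14, beside 0.0057 for all genes.

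Between the strains 6 of the 67 role genes were called (8.96%, beside 21.3% of all genes), 2 higher and 4 lower in D2. Prkcb, a protein kinase C, had 678 to 1098 CPM in D2 and 182 to 473 CPM in B6 (log2 fold change 1.67 ± 0.20, edgeR adjusted p = 9.60e-05). Dlg2, which encodes the scaffold PSD-93, was higher by 0.998 ± 0.22 (adjusted p = 0.00587). Nos1, the neuronal nitric oxide synthase that binds the receptor's scaffold, was lower in D2, with 78.5 to 100.1 CPM against 173 to 222 CPM and a log2 fold change of -1.10 ± 0.07 (adjusted p = 6.81e-07). Lower too were Ppp3ca, a calcineurin subunit (-0.71 ± 0.11, adjusted p = 0.000431), Shank2 (-0.48 ± 0.08, adjusted p = 0.000702) and Ppp2ca, a subunit of protein phosphatase 2A (-0.18 ± 0.06, adjusted p = 0.0430). The call of Ppp2ca was lost in 11 of 12 fits that each left out a library (adjusted p from 0.0325 to 0.137). None of the 15 genes of glutamate and co-agonist handling was called.

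The genes whose levels followed a member most closely over the 12 libraries were named by Pearson's r of log2 levels, as a description of libraries that also differ in strain and makeup. For Grin2b they included Wdr31 and Chchd7 (r of 0.995 and 0.994). These 2 values hold the strain difference of Grin2b, and within groups r was 0.821 and 0.733. For Grin1 the genes were 2900026A02Rik, Gad1 and Enoph1 (0.920, 0.917 and 0.916). Grin2a was followed by Nfrkb, 5830418K08Rik and 2410137F16Rik (0.933, 0.920 and 0.888) and Grin2c by Kcnj14, Ttyh1 and Lrrc4b (0.933, 0.921 and 0.901). Fastk, Ciao1 and Tagap1 followed Grin2d (0.874, 0.852 and 0.850), and Fbn2, Abca5 and Xiap followed Grin3a (0.952, 0.952 and 0.948). No gene stood in the list of more than 1 member.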

How the data were processed

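Gene expression was measured by mRNA sequencing (KAPA mRNA Hyper Prep) of hippocampal total RNA in 12 libraries. Groups come from the labels for strain and treatment alone. Replicate numbers follow the order of accession and pair nothing. The labels name mice, but say no more of how the libraries of a group were drawn, and p-values measure the spread between these libraries.

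The authors aligned the reads of each strain to its own genome and estimated counts with RSEM 1.2.12 and Bowtie2 2.2.0, per the submitters' processing notes, which name GRCm38 and mm10. The annotation release is not given in the sources used here. The deposited expected counts are not normalized. They were rounded to whole numbers, and identifiers matched GENCODE M21 for 98.6% of genes. The deposited signal per gene is the authors' DESeq2 normalized count, a truncated expected count divided by a size factor (0.584 to 1.35). Multiplying back gave whole reads, within 0.01 of a read, for 100% of 266508 values. The authors' expected-count table had 27 symbols turned into dates, which were restored by identifier.

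Genes were filtered with filterByExpr by group, which left 15854 (71.3%). Genes were tested in edgeR 4.0.16 (R 4.3.3) by quasi-likelihood, with TMM normalization, robust estimation and 4 group means, and Benjamini-Hochberg adjusted p under 0.05 over all tested genes was called. Standard errors are the log2 fold change over the square root of F and approximate, and 95% intervals use the t distribution on each gene's degrees of freedom in that fit. Alternatives were DESeq2 1.42.0, limma-voom (limma 3.58.1), other normalization, filter and fit settings, total count as a covariate, single-strain fits and leaving out each library, and, chosen after seeing the data, whole reads and a 3′ UTR covariate. For the comparison in B6 the fit was tested on simulated data of 15721 genes and called 14% of genes changed 1.5-fold, 58% at 2-fold, 92% at 4-fold and 94% at 8-fold. Of the calls on simulated data, 7.86% were genes left unchanged, above the threshold of 0.05. Ratios were tested by exact permutation within strata. The named genes are the 6 members, Hp1bp3, Grin3b and Grina, of each role list the called genes where at most 4 were called, and in the knockdown in B6 and averaged over strains the gene with the smallest p where none was, and per member the 3 genes of highest r with a mean of at least 1 CPM, of which 1 is not reported here. The neighbours of Grin2b were added after values were seen. Members and lists were chosen with earlier results of these data known.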

Additional observations from a re-analysis of the deposited data

How the results depend on the processing

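The 5 counts of called members were unchanged in the fits run except in those named next. DESeq2 called 1 member in the knockdown in B6 (Grin2c), where edgeR called 0. With total count as a covariate, and in 8 of 12 fits without 1 library, the strain comparison called 1 member (range 1 to 2), Grin2b, in place of 2. Role list genes called went from 0 to 7 (DESeq2) averaged over strains, with 0 to 5 without 1 library (4 without B6 KD 3, 2 without D2 Ctrl 3, 5 without D2 KD 3), and from 0 to 13 (DESeq2), 1 (B6 libraries only), 1 (3′ UTR covariate) and 0 to 4 (without 1 library: 4 without B6 KD 3, 2 without D2 Ctrl 3, D2 KD 2 or D2 KD 3) in B6. In the strain comparison DESeq2 called 11 in place of 6, and edgeR called 5 to 9 without 1 library. Of all genes in B6, 418 were called, and 1668 by DESeq2, 607 with the newer quasi-likelihood method, 0 with total count as a covariate, 636 with the 3′ UTR covariate and 0 to 790 without 1 library; averaged over strains 0 were called, and 1198 by DESeq2, 15 with the newer method and 0 to 798 without 1 library.

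Signs turned for values near 0, none of them called. Grin1 in D2 was -0.061 with total count as a covariate and -0.12 to 0.11 without 1 library, and between the strains -0.041 to 0.10. Grin2a in D2 was -0.22 to 0.62, Grin2c in D2 -0.15 to 0.11, Grin2d in D2 -0.056 to 0.15 and -0.011 with the 3′ UTR covariate, Grin2b averaged over strains -0.20 to 0.020, and the interaction of Grin3a -0.099 to 0.30. The interaction of the Grin2a to Grin2b ratio was -0.12 to 0.41. The cause was not tested. Coding length in place of merged exons moved the shares by construction: Grin2b to 85.9%, 86.1%, 28.6% and 31.99% in B6 Ctrl, B6 KD, D2 Ctrl and D2 KD, Grin2c to 9.11%, 9.12%, 53.5% and 49.8%, Grin2d to 2.39% and 2.71% in B6 and 9.62% in D2 KD, and Grin2a to 7.87% and 8.54% in D2.

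No paired analysis was possible because the labels give no replicate numbers. With 3 libraries a group and simulated recovery of 14% at 1.5-fold in the B6 comparison, knockdown changes of the size estimated here are mostly below what the test calls.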

Other observations

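Grin3b, the gene of GluN3B, had 0.145 to 0.459 CPM in B6 Ctrl, 0.511 to 0.705 CPM in B6 KD, 0.217 to 0.623 CPM in D2 Ctrl and 0.664 to 0.815 CPM in D2 KD. The KD libraries lay above the Ctrl libraries in both strains, but the share of all genes separated in that direction is not reported here. The log2 fold change averaged over strains was 0.83 ± 0.32 (edgeR adjusted p = 0.192, unadjusted 0.0240), on 5.14 to 31 expected counts per library. An unadjusted p under 0.05 was found for 19.2% of all genes in that comparison. The expected counts of Grin3b were not whole in 6 of 6 B6 libraries and whole in the D2 libraries.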
